A study of Mus musculus with 2 samples.

Results

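Chemokine ligand genes were taken as protein-coding genes whose symbol is Ccl, Cxcl, Cx3cl or Xcl followed by a number, and 37 of the 21755 protein-coding genes considered (autosomes and X) met this rule. Open chromatin at these genes was read from ATAC-seq, an assay in which the Tn5 transposase cuts accessible DNA, of mouse granulocyte monocyte progenitors (GMP), the marrow cells that precede neutrophils and monocytes. They were primary cells of adult males of the strain C57BL/6J, 5 to 6 weeks old, for which the labels name no treatment and no altered allele, and each library started from 50000 cells. There was 1 group with 2 biological replicates, which have their own biosample identifiers and share a donor label, so replicate 1 against replicate 2 was the only comparison between samples and no condition was contrasted. The deposited files list accessible regions with a fold enrichment (a linear ratio given by the authors, whose denominator is not stated in the sources used here) and hold no read counts, so depth is unknown. A missing region is one that did not pass a list's threshold.

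Chemokines are small secreted proteins that steer leukocytes by binding receptors of the G protein coupled class. Their names follow the spacing of the first cysteines (CC, CXC, CX3C and C), and most genes lie in tandem arrays that grew by duplication. Inflammatory members are switched on in myeloid cells by signals that act through NF-kB, AP-1 and interferon-regulated factors, whereas homeostatic members such as Cxcl12, Ccl19 and Ccl21 are made mainly by stromal cells. In the marrow, Cxcl12 holds progenitors in place through its receptor Cxcr4, and the ligands of Cxcr2 draw neutrophils out.

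The label of the cells was set against marker genes. All 9 GMP markers (Mpo, Elane, Ctsg, Ms4a3, Cebpa, Csf3r, Kit, Cd34 and Fcgr3) had a promoter region, at folds of 5.50 to 13.9. NK cells had no marker of their own in the check, and none of 5 T cell markers (Cd3e, Cd3g, Cd8a, Bcl11b and Tcf7) had a promoter region. The 4 stromal and endothelial markers (Cdh5, Pecam1, Col1a1 and Pdgfrb) all had one, at 8.39 to 14.3, a range that overlaps that of the GMP markers. What part other cells have in the chemokine values was not tested, and a locus open in fewer cells cannot be told apart from one that is less open in every cell. The series-level list held 75129 regions, the list of replicate 1 held 65406 and that of replicate 2 held 53670, so replicate 2 lists fewer regions in total.

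A promoter region, defined as a merged region whose summit lies within 1000 bp of a transcription start site (TSS), was found at 15 of the 37 chemokine genes (40.5%), while 62.7% of all protein-coding genes had one. The 15 genes were Ccl2, Ccl3, Ccl4, Ccl6, Ccl9, Ccl12, Ccl24, Ccl25, Ccl27a, Cxcl2, Cxcl3, Cxcl10, Cxcl12, Cxcl16 and Cx3cl1. Ccl6, Ccl9 and Cxcl10 had 2 such regions each, which makes 18 promoter regions in all. Their folds ran from 3.22 to 11.6 with a median of 7.67, compared with a median of 8.78 over all 17403 promoter regions, and their median width was 498.5 bp, compared with 745 bp. In the separate lists of the replicates, 12 of the 18 (66.7%) appeared in both, against 81.0% of all promoter regions. Each replicate also has a looser, longer deposited list (116461 and 98703 merged regions), and the series has a more permissive replicated list of 124991. Replicate 1 listed 14 of them and replicate 2 listed 12. The 4 that neither list held were the second regions of Ccl6 and Cxcl10 and the only regions of Ccl27a and Cxcl3, and all 4 were in the looser list of replicate 1. Where both replicates listed a region, the fold was higher in replicate 1 for 11 of 12, as for 91.3% of all promoter regions.

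**Figure D1:**
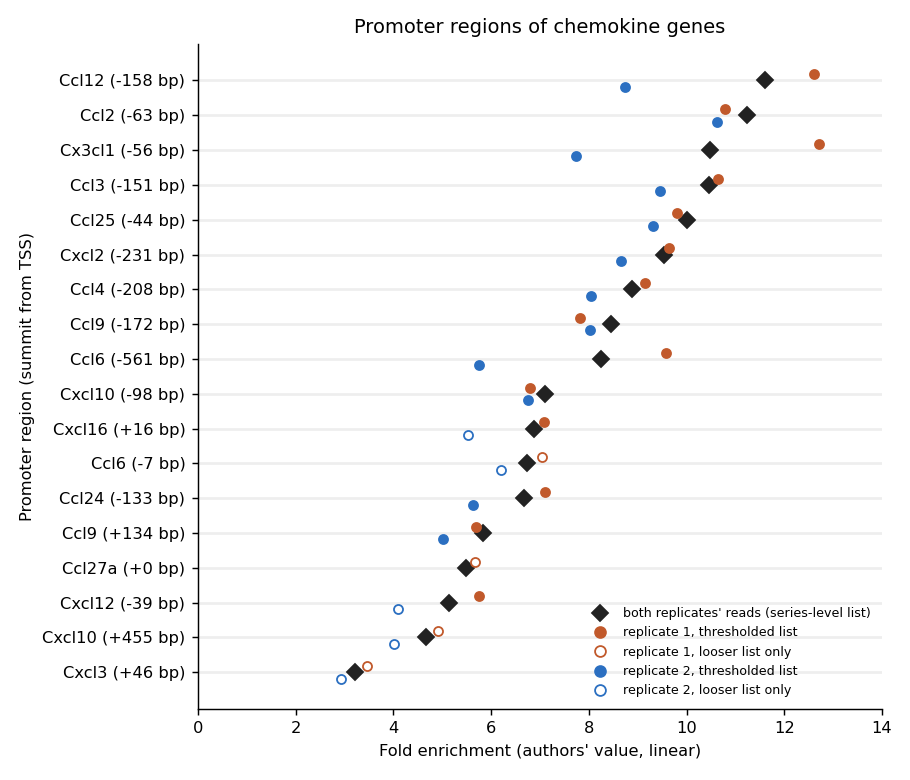
Fold enrichment (linear, authors' value) of the 18 promoter regions of chemokine genes, with the distance of the summit from the nearest TSS in brackets. Diamonds are the series-level list, orange circles replicate 1 and blue circles replicate 2, with open circles where only the looser list of that replicate held the region. Ccl12, Ccl2, Cx3cl1 and Ccl3 lie at the top, between 10.5 and 11.6, and replicate 2 lies to the left of replicate 1 in most rows.

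Among the chemokines of the macrophage inflammatory type, which attract monocytes, macrophages and T cells, 4 of 5 genes had a promoter region (Ccl3, Ccl4, Ccl6 and Ccl9) and Ccl5 had none. Ccl3, also called macrophage inflammatory protein 1 alpha, had a region of 1089 bp (chr11:83648874-83649962, mm10) whose summit lay 151 bp upstream of its TSS. Its fold was 10.5 in the series-level list, 10.6 in replicate 1 and 9.45 in replicate 2. Ccl4, its neighbour on the opposite strand, reached 8.89 at a summit 208 bp upstream (chr11:83662209-83662772), with 9.15 in replicate 1 and 8.05 in replicate 2. The replicates differed by about 1 fold unit at both genes, less than at the next gene of the group.

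Ccl6, a gene of rodent myeloid cells, carried 1 region with its summit 561 bp upstream (chr11:83593482-83593785) at 8.24, with 9.59 in replicate 1 and 5.75 in replicate 2. A second one lay at the TSS itself (chr11:83592926-83593230) at 6.74, and only the looser lists of the replicates held it, at 7.04 and 6.21. Both Ccl6 regions lie within an intron of E230016K23Rik, a transcript that overlaps the gene. Ccl9, which lies beside Ccl6 and encodes a related protein, had a region inside its own body (chr11:83577001-83577624), 172 bp upstream of an alternative start of a transcript without a coding sequence, at 8.46 (7.83 in replicate 1 and 8.03 in replicate 2). The region at its coding start (chr11:83578305-83578668) was weaker, at 5.84, 5.68 and 5.02 in the same order. Of the promoter regions listed in both replicates, the intragenic Ccl9 region was the single one with the higher fold in replicate 2.

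The monocyte chemoattractants and eotaxins, most of which bind CCR2 or CCR3, had a promoter region at 3 of 7 genes (Ccl2, Ccl12 and Ccl24). None was listed at Ccl7, Ccl8, Ccl11 and Ccl26. Ccl2, the main ligand that brings monocytes out of the marrow through CCR2, had its summit 63 bp upstream (chr11:82035114-82035752), with a fold of 11.2, 10.8 in replicate 1 and 10.6 in replicate 2. Ccl12, a second CCR2 ligand of mice, had the highest fold of the chemokine promoters in the series-level list, 11.6 at 158 bp upstream (chr11:82101138-82101941), with 12.6 in replicate 1 and 8.73 in replicate 2. The order at the top differed between the replicates, since Cx3cl1 stood highest in replicate 1, at 12.7, and Ccl2 in replicate 2, where Ccl3 and Ccl25 also exceeded Ccl12. Ccl24, an eotaxin, reached 6.68 (7.09 and 5.63) at 133 bp upstream (chr5:135572883-135573380).

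Of the 5 CXCR2 ligands that attract neutrophils, Cxcl2 and Cxcl3 had a promoter region and Cxcl1, Cxcl5 and Cxcl15 had none. The Cxcl2 region was the widest of the 18, at 1213 bp (chr5:90902982-90904194), with a fold of 9.54, 9.64 in replicate 1 and 8.66 in replicate 2. The Cxcl3 region (chr5:90785886-90786280) was the weakest, at 3.22, and the replicates held it only in their looser lists, at 3.47 and 2.94. At Cxcl1 the nearest summit of the series-level list was 6.39 kb from a TSS. A promoter region of Cxcl1 was present in the more permissive replicated list, at 4.77, and in the looser lists at 5.10 and 3.87. The Cxcl2 promoter was thus in every list used, and that of the adjacent Cxcl1 only in the permissive ones.

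The stretches before the start of Cxcl1, Cxcl2 and Cxcl3 are shown because all 3 carry the NF-kB letters searched for, although the genes differ in whether a promoter region was listed. They cover the 150 bases before the RefSeq start on the sense strand (GRCm38.p6), at chr5:90891095-90891244, chr5:90903749-90903898 and chr5:90785951-90786100, and capitals mark NF-kB (GGGANTTTCC) and TATA box (TATAAA) matches.
Cxcl1: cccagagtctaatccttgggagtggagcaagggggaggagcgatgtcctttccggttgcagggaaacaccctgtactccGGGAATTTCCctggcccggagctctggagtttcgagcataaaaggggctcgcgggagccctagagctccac
Cxcl2: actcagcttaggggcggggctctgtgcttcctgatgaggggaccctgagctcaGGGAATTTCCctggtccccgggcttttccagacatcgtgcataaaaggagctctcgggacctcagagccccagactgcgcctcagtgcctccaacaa
Cxcl3: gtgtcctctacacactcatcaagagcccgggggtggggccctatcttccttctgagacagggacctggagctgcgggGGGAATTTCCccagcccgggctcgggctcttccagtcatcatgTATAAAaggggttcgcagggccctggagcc
The NF-kB match begins 71 bases before the start in Cxcl1, 97 in Cxcl2 and 73 in Cxcl3. Over the 300-base RefSeq windows the 3 promoters are 53.9% to 57.9% identical in pairwise global alignment, and the genes are neighbours in 1 array, so they were not counted as independent cases. Only Cxcl3 holds the exact TATA box letters, 30 bases before its start.

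Of the 2 CXCR3 ligands that are protein-coding in the annotation, Cxcl10 had promoter regions and Cxcl9 had none. Cxcl11 is annotated as a polymorphic pseudogene and was therefore no member. Cxcl10, an interferon-induced attractant of activated T cells, had a summit 98 bp upstream (chr5:92348683-92349179) at a fold of 7.09, and the replicates were nearly equal at 6.80 and 6.75. A second region (chr5:92348267-92348524) lay 455 bp inside the gene at 4.67 and was in neither thresholded replicate list. The 250 bases before the RefSeq start of Cxcl10 (minus strand, chr5:92348890-92349139) are shown because the upstream summit falls in them, and capitals mark the IRF (GAAANNGAAA) and AP-1 (TGAGTCA) matches.
Cxcl10: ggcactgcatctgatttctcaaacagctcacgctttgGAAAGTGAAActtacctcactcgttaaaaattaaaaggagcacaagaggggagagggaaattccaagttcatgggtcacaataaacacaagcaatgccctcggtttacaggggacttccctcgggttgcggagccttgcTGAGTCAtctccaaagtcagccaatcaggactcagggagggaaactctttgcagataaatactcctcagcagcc
The IRF match begins 213 bases and the AP-1 match 74 bases before the start. Cxcl9 was listed at its promoter at 4.07 in the looser list of replicate 1 and in no list of replicate 2.

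Cx3cl1, the membrane-bound ligand fractalkine, reached 10.5 at 56 bp upstream (chr8:94771874-94772362). Its replicates stood at 12.7 and 7.74, the largest difference among the promoter regions that both listed, although Ccl6 (9.59 and 5.75) had the larger ratio. Of the other CXC ligands, Cxcl16 and Cxcl12 had promoter regions that replicate 2 held only in its looser list. Cxcl16, a scavenger receptor as well as a chemokine, stood at 6.89 (7.09 and, in the looser list, 5.53), in a region that also serves the promoter of Zmynd15 (chr11:70459624-70460261). Cxcl12 stood at 5.14 (5.75 and, in the looser list, 4.10) with its summit 39 bp upstream (chr6:117168358-117168856). Cxcl13, Cxcl14 and Cxcl17 had none. Ccl25, the CCR9 ligand of thymus and gut, reached 10.01 (9.81 and 9.31), but its region of 1207 bp (chr8:4324541-4325747) is also the promoter of Elavl1, an RNA-binding protein gene read in the other direction. The summit lay 44 bp upstream of the most upstream of 8 annotated Ccl25 TSSs. A later Ccl25 start had no promoter region, and the nearest summit before it lay 1663 bp upstream, at 12.6. Without regions that are also another gene's promoter, 13 chemokine genes had one. The CCR10 ligand Ccl27a was listed at 5.49 with a summit on 1 of its 18 annotated TSSs (chr4:41774100-41774305), and in the replicates only by the looser list of replicate 1, at 5.67.

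No promoter region was listed for Xcl1, for the CCR8 ligand Ccl1, for the CCR4 ligands Ccl17 and Ccl22, for the CCR7 ligands Ccl19, Ccl21a and Ccl21b, or for Ccl20, Ccl27b and Ccl28. The first summits outside the 1000 bp limit belonged to Ccl4 at 1163 bp downstream, Ccl17 at 1477 bp downstream with a fold of 9.81, and Cxcl12 at 1528 bp upstream with a fold of 9.25. With a window of 2500 bp, Ccl17, Ccl1 and Ccl28 also counted, which made 18 genes, while 67.0% of all genes then had a promoter region. The replicated list gave 20 (70.4% of all genes), adding Cxcl1, Cxcl9, Cxcl14, Ccl17 and Ccl22 at folds of 3.20 to 5.49.

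Distal regions, whose summits lie more than 1000 bp from every protein-coding TSS and which go to the gene with the nearest one, numbered 96. At least 1 was assigned to 25 of the 37 chemokine genes (67.6%), as to 59.9% of all genes. The median was 2 per chemokine gene and 1 over all genes, and the means were 2.59 and 2.65. Both kinds of region occurred at 11 genes, 14 had distal regions only, and Ccl3, Ccl12, Ccl27a and Cxcl16 had a promoter region only. Neither kind was assigned to Ccl11, Ccl19, Ccl20, Ccl21a, Ccl21b, Ccl26, Ccl27b and Cxcl15. A gene in an array can lack assigned regions because a neighbour is nearer. Within 50 kb of a TSS, Ccl3 had 11 distal regions and Ccl11 had 7. Of the 96 assigned regions, 66 (68.8%) were in the lists of both replicates, compared with 61.6% of all distal regions. A further 14 were in replicate 1 only, 4 in replicate 2 only and 12 in neither. Their median fold was 7.96, from 1.88 to 23.0, and that of all 57726 distal regions was 7.93. Their summits lay a median of 13.8 kb from the TSS (16.8 kb over all). Of these summits, 55 were intergenic, 36 in introns and 5 in exons, and the same shares over all distal regions are not given here. Repeat-masked sequence held 7 of them (7.29%), against 10.4% of all distal summits.

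**Figure D2:**
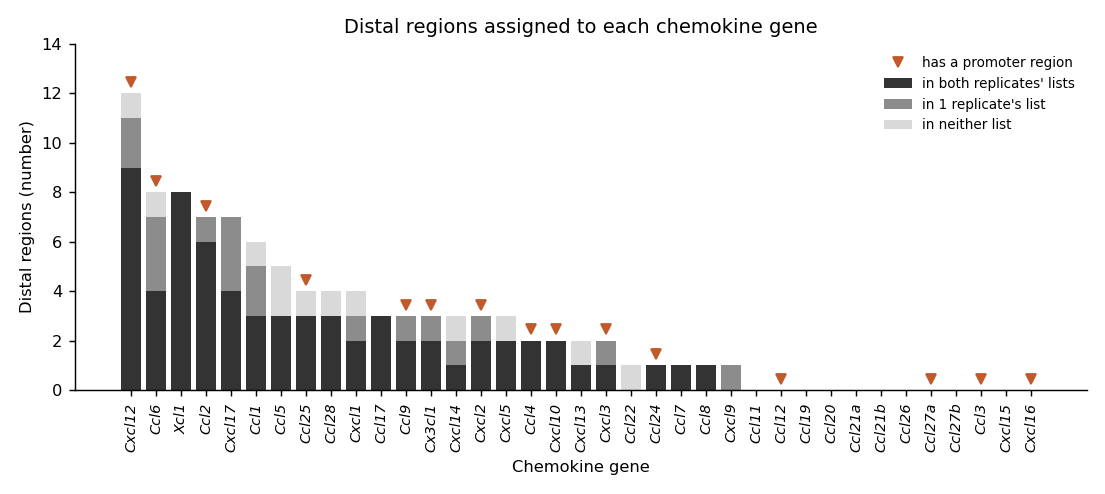
Number of distal regions assigned to each of the 37 chemokine genes, split by whether both, 1 or neither of the replicates' thresholded lists held them, with triangles over genes that have a promoter region. Cxcl12 has 12, Ccl6 and Xcl1 have 8 each, and 12 genes have none.

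By nearest TSS, Cxcl12 had the most distal regions, 12, of which 9 were in both replicates. They reached from 1.53 kb upstream to 263 kb downstream of its TSS, and 7 of them lay more than 50 kb away. The strongest stood 225 kb downstream (chr6:117393516-117393883), at 18.2, with 19.6 in replicate 1 and 12.5 in replicate 2, far above the 5.14 of the promoter. The order of genes depended on this assignment. Where all distal regions within 50 kb of a TSS counted, Cxcl12 had 5, Ccl6 and Ccl9 had 16 each and Cxcl10 had 14. Xcl1, a ligand made by T and NK cells, had 8 distal regions at folds of 8.06 to 19.5, all of them in both replicates, and no promoter region. The strongest, 64.6 kb downstream (chr1:164870719-164871263), read 22.3 and 13.5 in the replicates. Its summit lies in an annotated exon, within the bodies of the non-coding genes Gm20743 and Gm32569. The Xcl1 regions 36.6 kb downstream and 24.7 kb upstream lie within 1000 bp of the starts of Gm32569 and 1700029M03Rik. They count as distal because only protein-coding TSSs were used. Xcl1 was the only one of the 10 genes with the most distal regions for which every one was in both replicate lists.

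Ccl6 also had 8, at folds of 5.97 to 9.22, within 26.1 kb upstream, and 4 of them were in both replicates. All 8 lay in introns of E230016K23Rik. Ccl2 had 7, at folds of 4.19 to 13.1, between 11.6 and 30.6 kb upstream, with 6 in both replicates. The strongest of them (chr11:82015044-82015491) read 14.4 and 10.5. None assigned to Ccl2 lay downstream of its TSS. Regions at 4.87 and 5.49 between Ccl2 and Ccl7 went to Gm17268, whose TSS was nearer. Cxcl17, a mucosal chemokine, had 7 at 5.37 to 10.1, and 4 were in both. Ccl1 had 6 at 5.98 to 10.4, with 3 in both, and Ccl5 had 5 at 3.99 to 11.96, all upstream and 3 in both. The 2 Ccl5 regions nearest to its TSS, 2.93 and 4.34 kb upstream, were its weakest, at 3.99 and 4.75, and neither replicate's thresholded list held them.

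Cxcl1, Ccl25 and Ccl28 had 4 distal regions each. The Ccl28 region 8.11 kb downstream, in its own intron (chr13:119631632-119632148), had the highest fold of all chemokine regions, 23.0, with 23.0 in replicate 1 and 19.5 in replicate 2. Ccl28 is an epithelial ligand of CCR10, and its promoter was listed only by the looser list of replicate 1, at 4.25. Cxcl1 reached 13.9 at 9.30 kb upstream (chr5:90881604-90882103, with 14.6 and 11.4 in the replicates). Ccl25 reached 15.9 at 20.8 kb downstream of its later start (chr8:4369935-4370586, with 16.5 and 12.9). Below these in number, Cxcl5 had 3 distal regions and 1 of them, 17.1 kb upstream (chr5:90741914-90742552), stood at 18.1, with 17.2 and 16.1 in the replicates. Cxcl2 had 3, the strongest 5.31 kb downstream (chr5:90909025-90909311) at 14.6 (15.03 and 11.6). Ccl8 had a single region, 24.5 kb downstream, at 14.4 (14.9 and 11.4). The folds of these strongest distal regions exceeded that of every chemokine promoter in the series-level list.

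The 101 bases around 4 of the strongest distal summits are shown on the plus strand of GRCm38.p6 because they stand above every chemokine promoter, at chr13:119631881-119631981, chr1:164870868-164870968, chr6:117393641-117393741 and chr5:90742203-90742303. Capitals mark a PU.1 match (GAGGAAGT or its reverse complement) at Xcl1 and Cxcl5 and a C/EBP match (TTGCNNAA) at Cxcl12.
Ccl28: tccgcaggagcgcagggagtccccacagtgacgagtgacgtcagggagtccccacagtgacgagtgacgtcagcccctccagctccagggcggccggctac
Xcl1: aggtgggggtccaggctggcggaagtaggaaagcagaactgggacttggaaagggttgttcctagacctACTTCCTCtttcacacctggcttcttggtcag
Cxcl12: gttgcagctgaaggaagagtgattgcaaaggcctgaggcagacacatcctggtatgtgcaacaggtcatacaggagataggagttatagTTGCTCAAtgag
Cxcl5: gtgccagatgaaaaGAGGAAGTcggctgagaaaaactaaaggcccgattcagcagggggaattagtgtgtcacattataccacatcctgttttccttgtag
The Ccl28 stretch holds none of the motifs searched.

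Chemokine genes with at most 250 kb between neighbours were joined into clusters, with 25 kb added at each end. There were 7 clusters with 26 of the genes, and 11 genes stood alone. The 7 clusters held 84 regions of any kind in 1131 kb, or 7.43 per 100 kb, compared with 2.85 per 100 kb over the autosomes and X. These are unlike stretches, since the clusters are centred on genes and the chromosomes include sequence far from any gene. Counted per gene, the mean number of distal regions was 2.59 for chemokine genes and 2.65 for all genes. In the list of replicate 1 alone the clusters held 6.19 per 100 kb (2.48 over the same chromosomes), and in that of replicate 2 they held 5.48 (2.04). The density was uneven between clusters, from 0 to 16.8 per 100 kb.

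The cluster from Ccl5 to Ccl4 on chromosome 11, with Ccl9, Ccl6 and Ccl3 between, held 27 regions, or 14.3 per 100 kb (10.6 in replicate 1 and 10.1 in replicate 2). Of these, 24 were nearest to a chemokine gene and 3 to Rpl9-ps1, which lies between Ccl6 and Ccl3. The other cluster of chromosome 11, from Ccl2 to Ccl1 with Ccl7, Ccl11, Ccl12 and Ccl8, held 16 regions, or 5.00 per 100 kb (4.69 and 3.75). Ccl1 was the nearest gene of 6 and Ccl2 of 5, at opposite ends of the array, and Ccl11 had none. Gm17268, which is not a chemokine gene, was the nearest gene of 2. On chromosome 5 the cluster from Cxcl5 to Cxcl2 held 15 regions, or 7.63 per 100 kb (5.09 and 5.60), of which 13 were nearest to a chemokine gene. The other 2 were promoter regions of Pf4, the platelet factor 4 gene, at 6.24 and 6.41, while Ppbp, a further platelet chemokine gene of that array, had no region. The cluster of Cxcl9 and Cxcl10 had the highest density, 16.8 per 100 kb (14.2 and 11.6), but 8 of its 13 regions were nearest to Sdad1 or Art3. The cluster of Ccl22, Cx3cl1 and Ccl17 held 9 regions at 7.73 per 100 kb, and that of Ccl26 and Ccl24 held 4 at 6.39.

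**Figure D3:**
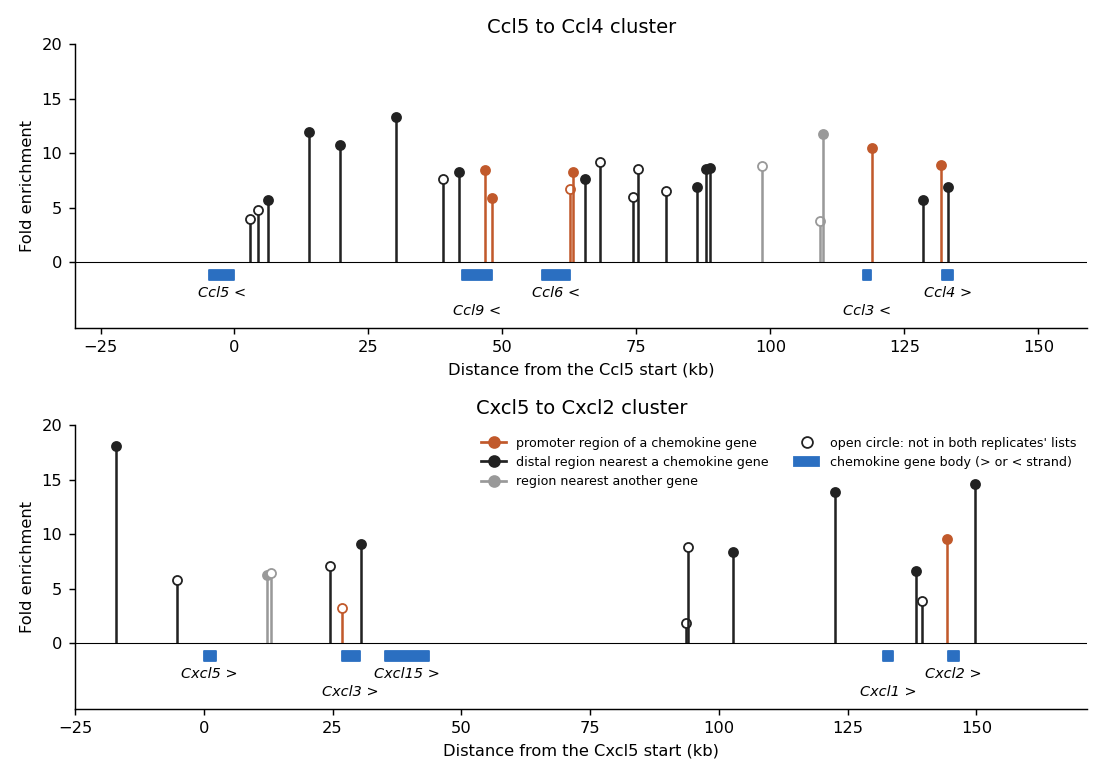
Regions of the Ccl5 to Ccl4 cluster (top) and the Cxcl5 to Cxcl2 cluster (bottom), by distance in kb from the start of Ccl5 or Cxcl5 and by fold enrichment in the series-level list, with blue bars for gene bodies and > or < for the strand. Orange stems are promoter regions of chemokine genes, black stems distal regions nearest a chemokine gene, grey stems regions nearest another gene, and open circles regions that the lists of both replicates do not share. The top cluster carries regions along most of the stretch between Ccl5 and Ccl4, whereas in the bottom one Cxcl5, Cxcl15 and Cxcl1 have no region at their start.

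No region at all was listed in the cluster of Ccl27b, Ccl19 and Ccl21a on chromosome 4 or around Ccl21b, in either replicate. The nearest summits lay 103 kb from Ccl21a, 121 kb from Ccl19, 222 kb from Ccl27b and 482 kb from Ccl21b. These genes lie in a duplicated stretch, so the sequence within 1000 bp of the start was cut into 31-base words and each was counted in the genome. At Ccl21b and Ccl27b 100% of the words occurred more than once, at Ccl21a 83.7%, at Ccl19 83.1% and at Ccl27a 68.5%. At the other 32 chemokine genes this share had a median of 0.761% and reached 18.8% at Cxcl15. How the authors' processing treated reads that match several places is not stated in these sources, and its part in the absent regions was not tested. The absence of regions at these 4 genes, and the single weak region of Ccl27a, are therefore uncertain. Ccl20, with 7.46% repeated words and its nearest summit 39.5 kb away, had no region in a largely unique sequence.

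**Figure D4:**
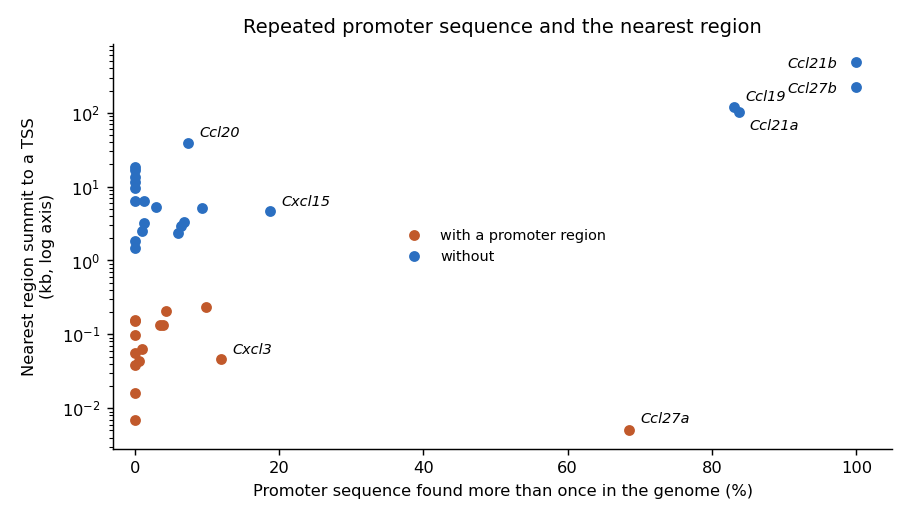
Share of 31-base words within 1000 bp of the start that occur more than once in the genome (x axis, percent) against the distance from the nearest region summit to a TSS (y axis, kb, logarithmic), for the 37 chemokine genes. Ccl21b, Ccl27b, Ccl21a and Ccl19 combine shares of 83.1% to 100% with distances over 103 kb. Ccl27a, whose distance is 0, is drawn at the lower edge.

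Promoters were also described by their CpG content, as the observed to expected ratio in the window from 250 bases before to 50 after each TSS, taking the highest value over the gene's TSSs. CpG-poor promoters, with a ratio under 0.4, were found at 27 of 37 chemokine genes (73.0%) and at 31.3% of all genes. The median ratio was 0.236 for chemokine genes and 0.699 for all. Among CpG-poor genes, 8 of 27 chemokine genes (29.6%) had a promoter region, compared with 17.3% of all CpG-poor genes. Among CpG-rich ones it was 7 of 10, compared with 83.4%. The CpG-rich class is small, and Cxcl1, one of its 3 genes without a promoter region, lies on the limit itself with a ratio of 0.4. The 8 CpG-poor genes with a promoter region were Ccl2, Ccl3, Ccl4, Ccl6, Ccl9, Ccl12, Ccl24 and Cxcl3. All 5 chemokines of the macrophage inflammatory type and all 7 monocyte chemoattractants and eotaxins were CpG-poor. Chemokine genes have a median of 2 TSSs and all genes a median of 3, which gives other genes more windows from which the highest is taken. Counted per TSS window, 58.6% of 87 chemokine windows and 45.8% of all 93196 windows were CpG-poor, a smaller gap. Of the chemokine windows, 18 belong to Ccl27a and 8 to Ccl25, both in the CpG-rich class, and their weight in this share was not tested.

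**Figure D5:**
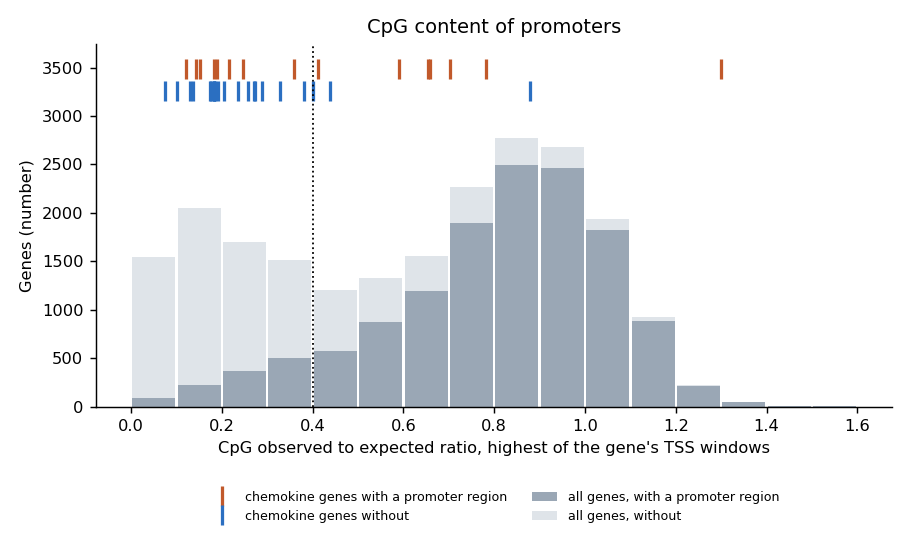
Number of protein-coding genes by the CpG observed to expected ratio of their promoter (bars; dark with, light without a promoter region), with the 37 chemokine genes as ticks above, orange with and blue without a promoter region. The dotted line is the limit of 0.4, and 27 chemokine genes lie to its left.

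The same promoter windows were searched for 8 motifs on both strands. The NF-kB letters, to which the inflammatory factor of that name binds, occurred at 5 chemokine genes (13.5%), namely Ccl5, Cxcl1, Cxcl2, Cxcl3 and Cxcl5, and at 1.13% of all genes. Per TSS window the shares were 10.3% and 0.385%. Of these 5 genes, Cxcl2 and Cxcl3 had a promoter region. Cxcl1, Cxcl2, Cxcl3 and Cxcl5 are neighbours in the same array, so the share does not rest on independent cases. The TATA box occurred at 16 (43.2%, against 30.5%) and AP-1 at 6 (16.2%, against 12.6%). RUNX (TGTGGTT) was found at 5 chemokine genes (13.5%, against 14.2%), IRF at 3 (8.11%, against 10.1%) and PU.1 at 2 (5.41%, against 7.41%), each within 1 gene of the background share. C/EBP was found at 5 (13.5%, against 25.1%) and CTCF (CCNCNAGNNGGC) at 0 (against 6.01%). Other genes have more TSSs and so more windows in which to match, and the order changed for several motifs when windows were counted. Per TSS window the share was 25.3% for the TATA box (11.5% over all windows), 13.8% for AP-1 (4.39%), 18.4% for C/EBP (9.61%), 8.05% for IRF (3.56%), 6.90% for RUNX (4.93%), 3.45% for PU.1 (2.85%) and 0% for CTCF (2.67%). Ccl27a alone has 18 of the 87 chemokine windows. The 2 genes with PU.1 letters were Ccl5 and Ccl24. With windows of 1000 bp on each side, NF-kB still matched 5 chemokine genes, while 4.51% of all genes then matched. In those wider windows the TATA box (73.0%, against 79.2%) and AP-1 (24.3%, against 45.7%) were less frequent at chemokine genes than over all genes, the reverse of the shorter windows.

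Within 50 bp of the distal summits, PU.1 letters, those of a factor required for myeloid development, were found in 12 of 96 chemokine regions (12.5%) and in 8.78% of all distal regions. C/EBP letters were found in 11 (11.5%, against 10.6%), RUNX in 9 (9.38%, against 7.32%), CTCF in 9 (9.38%, against 6.24%), AP-1 in 8 (8.33%, against 5.35%) and IRF in 4 (4.17%, against 1.75%). NF-kB letters were in none, and in 0.106% of all, a share at which 96 regions would hold fewer than 1. None of these 7 motifs was present at 49 of the 96 summits. The share of all distal summits without them is not given here, so no difference is read from this count. Over the whole length of the regions, AP-1 letters were in 13.5% of chemokine regions and 14.04% of all, so the order turned. NF-kB letters were then in 1 chemokine region (1.04%, against 0.617%), and C/EBP, PU.1, IRF, RUNX and CTCF kept the higher share in chemokine regions. The median fold of the regions with PU.1 letters was 8.03, compared with 7.96 for all chemokine distal regions, and the strongest regions of Ccl28, Ccl25 and Ccl8 held none of the 7 motifs within 50 bp of the summit. A match is a stretch of letters and not a bound site.

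Among 24 genes for chemokine receptors, 11 (45.8%) had a promoter region, below the 62.7% of all genes, and 145 distal regions were assigned to them, a median of 4 each where all genes have a median of 1. Cxcr4, the Cxcl12 receptor, had 42 distal regions and a promoter fold of 4.87 (5.01 and 4.52). Ccr1, a receptor of Ccl3, Ccl6 and Ccl9, had 17 distal regions and a promoter fold of 8.98 (9.03 and 8.07). Cxcr5, Ccr7, Ccr4 and Ccr6, which come next by number, had 9, 8, 7 and 7 distal regions and no promoter region. Cxcr3, the receptor of Cxcl9 and Cxcl10, had a promoter region at 9.16 (9.68 and 8.02) and 0 distal regions. For the CCR7 pair, the receptor thus had regions and its ligands Ccl19, Ccl21a and Ccl21b had none, with the limit on their sequence given above.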

How the data were processed

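ATAC-seq regions came from 7 deposited lists, and each fold enrichment is the authors' ratio for a row, used as deposited. The submitters' file list names mm10 and says that the series-level lists derive from the alignments of both replicates. The aligner, the peak caller and any Tn5 shift were not given in the sources used here. Summit positions came from the offset column as deposited. The main list was the conservative one, thresholded on the irreproducible discovery rate (rows score at least 540). Rows overlapping by 1 bp were merged, and the row with the highest fold gave the fold and summit. Genes and TSSs came from GENCODE vM21. A region counted as in a replicate where it overlapped that replicate's list by 1 bp. Promoter sequences of 27 of the 37 genes were matched in a RefSeq table (GRCm38.p6). Counts of chemokine genes were set beside the same counts over all genes, with no test. Members, roles and motifs were chosen with earlier results of these data known. Named genes are those with a promoter region and the 10 with the most distal regions, and others are given by count. The strongest regions of Cxcl2, Cxcl5, Ccl8 and Ccl9 and the neighbours of the distance limit were named after their values were seen. Python 3.11.15, pandas 2.3.3 and pysam 0.24.0 were used, and assignment was tested on simulated regions. Depth is unknown, so no interval was computed. The alternatives tried were other lists, each replicate alone, the strongest regions, other windows, cluster limits and motif windows.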

Additional observations from a re-analysis of the deposited data

How the results depend on the processing

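The number of chemokine genes with a promoter region was 11 to 13 with 1 replicate left out (58.1% and 61.4% of all genes), 15 with a 500 bp window, with TSSs of protein-coding transcripts only and, as an alternative chosen after seeing the data, with every row keeping its own summit, and 9 among the regions above the median fold (46.3% of all genes). The distal count was 71 to 85 with 1 replicate left out, 154 in the replicated list, 46 among the regions above the median fold and 221 where all regions within 50 kb counted, which left 4 genes without one in place of 12 (19.0% of all genes). Without replicate 1, promoter regions of Ccl27a, Cxcl3, Cxcl12 and Cxcl16 were lost, and without replicate 2 those of Ccl27a and Cxcl3. Cluster density was 5.48 to 6.19 per 100 kb with 1 replicate left out, 7.94 with nothing added at the ends and 4.31 with members up to 500 kb apart. Motif counts moved where the searched sequence grew, since longer windows hold more matches: with 1000 bp on each side promoters matched C/EBP at 25 genes (74.2% of all genes), RUNX at 20 (55.3%), IRF at 9 (41.1%), PU.1 at 5 (24.6%), CTCF at 1 (17.8%) and the TATA box at 27 (79.2%), and over whole distal regions C/EBP matched 36 (27.2% of all regions), RUNX 25 (18.04%), AP-1 13 (14.04%), IRF 8 (7.66%) and NF-kB 1 (0.617%). The number of chemokine regions, promoter and distal together, that the lists of both replicates held was 78, and it was 111 with the looser lists. The share of all regions in both looser lists is not given here, so the rise is not read as a trait of chemokine regions. No paired analysis was possible because the series holds 1 group. Leaving out regions shared with another gene's promoter, also chosen after seeing the data, gave 13 genes. Depth is unknown, so a missing region cannot be separated from a shallow library.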
